A study of Fagopyrum tataricum with 9 samples.

Results

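The genes described here are 221 well expressed new genes of Tartary buckwheat seeds, that is, genes such as Novel01480 that are not in the genome annotation and were added by the authors' transcript assembly. They were chosen by their deposited FPKM (fragment counts scaled by gene length and library total), as new genes with a mean of at least 20 FPKM in at least 1 of 3 stages. The deposited tables list 33940 genes, of which 31848 are annotated genes with an FtPinG identifier and 2092 are new genes. Novel02020 was left out by the rule. A further 1770 new genes had a count but stayed under the limit, and 100 new genes had no count in any library. The same limit held for 8334 annotated genes, with which the new genes were compared. Seeds of the cultivar XIQIAO NO.2 were collected at 13 DPA (days postanthesis, green fruit stage), 19 DPA (discoloration stage) and 25 DPA (initial maturity stage), untreated and from field-grown plants, with 3 replicates per stage, giving 9 libraries. Per the sample labels, the 3 stages were sampled on the same individual and the replicates were 3 plants, but nothing states that a replicate number marks a plant. The main tests treated the 9 libraries as independent, so p-values measure the spread between these libraries within a stage only. If replicate numbers mark plants, the pairing of stages within a plant was left out, except where a replicate block is named.

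A genome annotation is a list of gene models, mostly predicted from sequence features, similarity and earlier transcript data. When RNA reads are assembled with the annotation as a guide, transcribed loci without a model are added as new genes. Such loci can be protein-coding genes that the prediction missed, long non-coding RNAs, detached ends of neighbouring genes or transcripts of transposable elements. During seed development, embryo growth gives way to the storage of starch and protein and then to maturation and drying, and the set of abundant transcripts changes with it. The files give the new genes no position, sequence, name or function, so each is described by its length, its level and its course over the stages.

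Total counts per library were 22002318 to 25811462 (13 DPA), 22337188 to 23108799 (19 DPA) and 22383404 to 23689017 (25 DPA). Between stages, counts were scaled by the trimmed mean of M values (TMM) and given as CPM, counts relative to a common library size, with factors of 1.31 to 1.81 (13 DPA), 0.733 to 0.971 (19 DPA) and 0.652 to 0.788 (25 DPA). Of the storage protein genes that the study names, the glutelin gene FtPinG0008579200.01 had 107 ± 51.7, 39.3 ± 3.19 and 64.1 ± 7.27 FPKM at 13, 19 and 25 DPA (SD, n = 3). The glutelin gene FtPinG0000417000.01 had 16.4 ± 11.9, 2.82 ± 0.207 and 22.5 ± 3.93 FPKM, while the 11S globulin gene FtPinG0004288700.01 had stage means of 0.0478, 0.351 and 1.80 FPKM. The study describes this globulin gene as an exception, since it reports other globulin genes as upregulated mainly between the earlier pair of stages. The levels of those other genes were not examined here, so nothing on globulins as a family is read from FtPinG0004288700.01. Seeds are a mixture of tissues, so fewer cells of a type and less RNA per cell cannot be told apart in any of the differences below. How reads were counted (the tool, its strand option and what it did with reads that match in several places) is not given in the sources used here. Reads of a new gene that overlaps, or is a near-identical copy of, another gene could therefore have been split or shared, and all values of new genes carry this uncertainty.

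The 221 new genes took up a small share of the seed transcriptome. They held 1.58 ± 0.0677% of the counts at 13 DPA, 1.53 ± 0.129% at 19 DPA, then 2.05 ± 0.307% at 25 DPA (SD, n = 3), where the libraries ranged between 1.85 and 2.40%. All new genes together held 2.50 ± 0.163%, 2.10 ± 0.150% and 2.68 ± 0.414%. The annotated genes at the same limit held 81.5 ± 2.72%, 88.9 ± 1.49% and 89.2 ± 1.13%. The 10 most abundant of the 221 new genes held 0.363 ± 0.0680%, 0.639 ± 0.109% and 0.969 ± 0.141% of the counts. These shares are of the deposited totals, without a scaling factor, and the counting error of such sums is small beside the spread between replicates.

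By their highest stage mean, the new genes had a median of 34.0 FPKM, with quartiles at 25.5 and 75.6 FPKM and a maximum of 5037 FPKM. The annotated genes at the same limit had a median of 43.1 FPKM. A stage mean of at least 100 FPKM was reached by 40 of the new genes (18.1%) and by 1747 of the annotated genes (21.0%). Since 20 FPKM was the limit of choice, these levels describe the set and are no finding about it. The 2 genes just inside the limit were Novel00523 at 20.1 FPKM and Novel00935 at 20.4 FPKM, and the 2 just outside were Novel01669 at 19.97 FPKM and Novel00254 at 19.94 FPKM. Besides Novel02020, which the rule leaves out, the study lists 5 new genes for hormone families (Novel00946, Novel01990, Novel01557, Novel01693 and Novel00986). None of these 5 was among the 221, and the highest stage mean among them was 10.8 FPKM.

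At 13 DPA 180 of the new genes were at or above the limit, against 93 at 19 DPA and 109 at 25 DPA. The limit was met in 1 stage by 118 genes, of which 91 met it at 13 DPA, 3 at 19 DPA, then 24 at 25 DPA. It was met in 2 stages by 45 genes and in 3 stages by 58 genes. FPKM and TMM-scaled CPM place the peak of a gene differently. By FPKM, 147 of the new genes peaked at 13 DPA, 7 at 19 DPA, then 67 at 25 DPA. By TMM-scaled CPM, the numbers were 66, 34 and 121. For 62 genes the 25 DPA mean was above the 13 DPA mean by TMM-scaled CPM and below it by FPKM. FPKM carry no factor for libraries in which a few genes take up much of the total, so every test between stages below was made on TMM-scaled counts. Stage means in FPKM are given for the level of a gene among others, and differences between stages are not read from them.

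The length that the authors used for each gene could be recovered from its counts and FPKM, and it was a whole number of bases in every case, within 0.01. The new genes were 276 to 4039 bases long with a median of 1338 bases, against 201 to 8221 bases with a median of 1118 bases for the annotated genes at the same limit. Lengths of at least 2000 bases were found for 50 new genes (22.6%) and for 12.7% of the annotated genes. Lengths under 1000 bases were found for 67 new genes (30.3%) and for 42.0% of the annotated genes. A length that is a multiple of 3, as a coding sequence without untranslated ends must be, occurred in 57 new genes (25.8%) and in 3401 annotated genes (40.8%). Among all genes with a count, such a length occurred in 651 of 1992 new genes (32.7%) and in 45.0% of the annotated genes. Nothing on coding is read from these shares. Length is part of FPKM and so part of the choice, and the difference between the 2 kinds of gene was not tested. The longest was Novel01187 with 4039 bases, one of the 10 most abundant. The shortest was Novel01291 with 276 bases, which had 36.1 ± 8.29, 21.6 ± 4.83 and 13.1 ± 0.577 FPKM at 13, 19 and 25 DPA and was not called in any comparison.

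**Figure D1:**
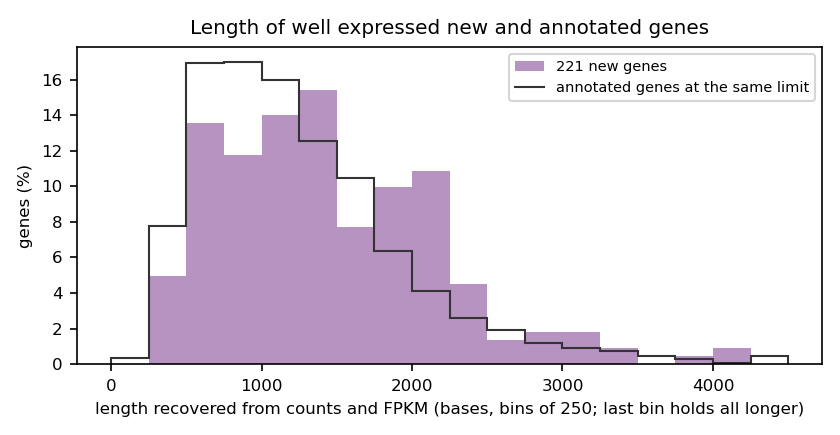
Share of genes (%) by length recovered from the deposited counts and FPKM, in bins of 250 bases, for the 221 new genes (filled) and the 8334 annotated genes at the same FPKM limit (line). The last bin also holds longer genes. The median was 1338 bases for the new genes and 1118 bases for the annotated genes.

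Stages were compared with edgeR's quasi-likelihood test over all 9 libraries, and a gene was called at an FDR (Benjamini-Hochberg adjusted p over 23609 genes tested) of at most 0.05 if its log2 fold change was also 1 or more in size. All 221 new genes passed the filter on low counts, which the choice by level makes likely. Log2 fold changes are the later minus the earlier stage on the TMM scale. Between 25 and 13 DPA, 105 of the 221 new genes (47.5%) were called, 66 of them upregulated and 39 downregulated at 25 DPA. Of all genes tested, 42.2% were called, 16.6% as higher and 25.6% as lower, so the share of new genes called was near this background while upregulated genes took a larger part of it. The annotated genes at the same limit had 3700 calls (44.4%), with 19.1% higher and 25.3% lower, compared with 29.9% higher and 17.6% lower among the new genes. The median log2 fold change was 0.29 for the new genes, −0.04 for the annotated genes at the limit and −0.07 for all genes tested. The TMM-scaled libraries of the stages did not overlap for 86 new genes that were higher and 55 that were lower at 25 DPA, and for 63.2% of all genes tested.

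Between 19 and 13 DPA, 39 new genes (17.6%) were called, 33 upregulated and 6 downregulated at 19 DPA. Of all genes tested, 8.57% were called, 4.11% as higher and 4.46% as lower, and the annotated genes at the limit had 921 calls (11.1%; 6.07% higher and 4.98% lower). The libraries did not overlap for 64 new genes that were higher and 27 that were lower at 19 DPA, against 32.2% of all genes tested. These calls took no account of the replicate numbers. With a replicate block, 50 new genes were called (42 higher and 8 lower), and 2743 of all genes tested. Without a block, the number of 19 vs 13 DPA calls changed when single libraries were left out, for all genes tested as for the new genes. Each such fit also has fewer replicates, and no fit with a block left a library out. Leaving out 13 DPA replicate 1 left 7 new genes called (4 of them higher), leaving out 13 DPA replicate 3 left 13 (9 higher), and leaving out 19 DPA replicate 1 or 2 left 21 (17 higher) or 11 (7 higher). Leaving out 19 DPA replicate 3 left 29 (25 higher), and leaving out 13 DPA replicate 2 gave 58 (49 higher). All genes tested had 2024 calls with all libraries, and 402, 3065 and 724 without 13 DPA replicate 1, 2 and 3. They had 1037, 672 and 1178 without 19 DPA replicate 1, 2 and 3.

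Between 25 and 19 DPA, 71 new genes (32.1%) were called, 41 upregulated and 30 downregulated at 25 DPA. Of all genes tested, 28.8% were called, 9.27% as higher and 19.5% as lower, and the annotated genes at the limit had 2494 calls (29.9%; 10.2% higher and 19.8% lower). The libraries did not overlap for 72 new genes that were higher and 50 that were lower at 25 DPA, against 53.8% of all genes tested. When 19 DPA replicate 1 was left out, 25 new genes were upregulated and 23 downregulated. The numbers were 23 and 29 for 19 DPA replicate 3 and 23 and 26 for 25 DPA replicate 1. All genes tested had 6793 calls with all libraries, and 5263, 5681 and 5451 in these fits. The call between 25 and 13 DPA was steadier, with 96 to 111 new genes called when any 1 library was left out.

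More new genes were upregulated than downregulated with TMM, RLE and upper-quartile factors in each comparison. With upper-quartile factors it was only 37 against 35 between 25 and 19 DPA. That comparison also turned round with TMM without 19 DPA replicate 3 or 25 DPA replicate 1. All 3 comparisons turned round with library totals alone and with limma on log2(FPKM + 1). Limma gave 48 higher and 91 lower (25 vs 13 DPA), 31 and 49 (19 vs 13 DPA) and 32 and 38 (25 vs 19 DPA). With totals alone, new genes called higher and lower numbered 47 and 94 (25 vs 13 DPA), 26 and 50 (19 vs 13 DPA) and 34 and 43 (25 vs 19 DPA). Under that scaling, all genes tested had a median log2 fold change of −1.19, −0.85 and −0.32 in these comparisons. The annotated genes at the limit then had 713 higher and 4576 lower between 25 and 13 DPA. Between new and annotated genes, the difference in the split was not tested, since genes are not replicates.

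**Figure D2:**
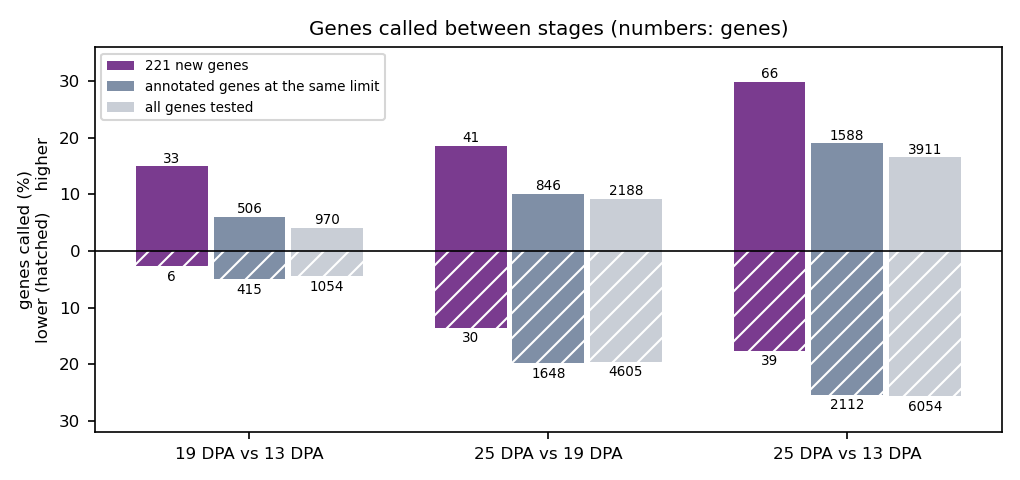
Genes called as higher (plain bars, upward) or lower (hatched bars, downward) at the later stage, in % of the genes tested of each group, by edgeR with TMM factors. For each comparison the bars stand for the 221 new genes, the annotated genes at the same FPKM limit and all genes tested, with the number of genes at each bar. More new genes were higher than lower in the 3 comparisons, with 33 and 6, 41 and 30, and 66 and 39 genes, which turned round when counts were scaled by library totals alone.

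The calls are also given by the number of stages in which a gene met the limit, as a description. A gene that falls below 20 FPKM at a later stage leaves the group with 3 stages, so the choice itself shapes the split of calls there and nothing is read from it. Of the 58 new genes at or above the limit in 3 stages, 25 were upregulated and 3 downregulated at 25 DPA compared with 13 DPA, against 885 and 187 of the 3148 annotated genes that met the limit in 3 stages. At 19 DPA compared with 13 DPA 13 of the 58 were upregulated and 0 downregulated by edgeR, with 1 lower at an unadjusted p under 0.05 and 1 called lower by DESeq2. The annotated genes had 272 higher and 20 lower. The 13 became 0 or 2 when 13 DPA replicate 1 or 3 was left out, and 4, 1 or 8 when 19 DPA replicate 1, 2 or 3 was. At 25 DPA compared with 19 DPA 8 were upregulated and 2 downregulated, against 314 and 162 of the annotated genes. The 8 became 1 when 19 DPA replicate 1 or 3 or 25 DPA replicate 1 was left out. Scaled by library totals alone, 18 of the 58 were higher and 17 lower between 25 and 13 DPA. Among the 118 new genes that met the limit in 1 stage, 24 were higher (20.3%) and 25 lower (21.2%) between 25 and 13 DPA. Of the 3367 annotated genes of this kind that were tested, 387 were higher (11.5%) and 1224 lower (36.4%). The 1363 new genes tested that stayed under the limit had 344 higher and 248 lower between 25 and 13 DPA.

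**Figure D3:**
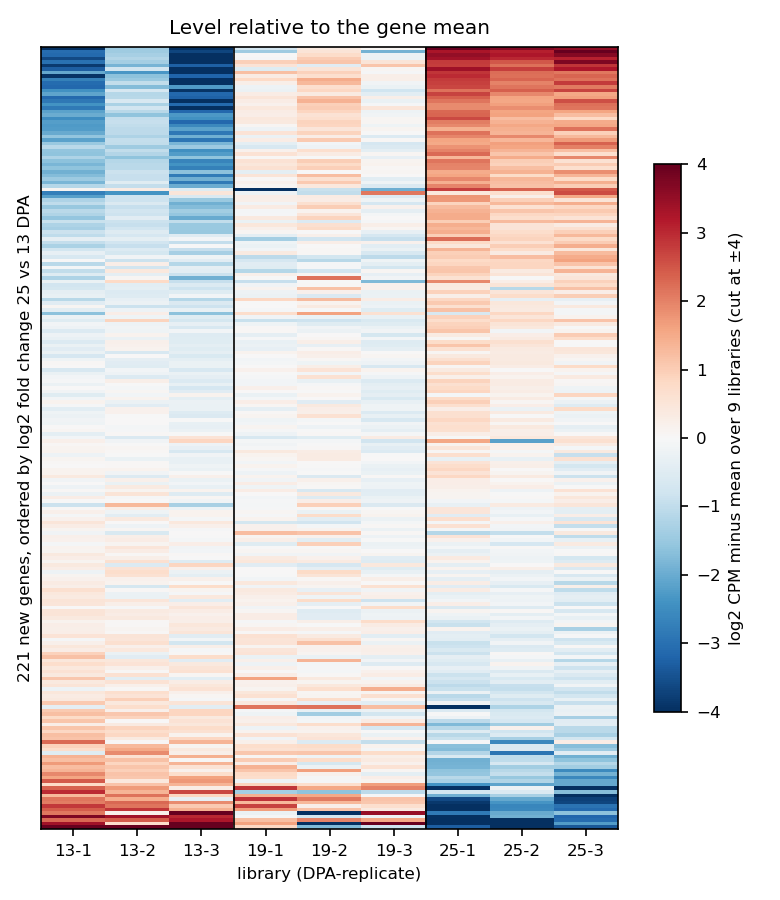
Level of each of the 221 new genes (rows, ordered by the log2 fold change of 25 DPA vs 13 DPA) in each of the 9 libraries (columns, stage and replicate number). Colours give log2 CPM on the TMM scale minus the mean of the gene over the 9 libraries, cut at 4 either way. Upregulated genes take up the top, and among them 13 DPA replicate 2 stands nearer to the 19 DPA libraries than the other 13 DPA libraries do.

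Of the 221 new genes, 112 were called in at least 1 comparison and 109 in none. The 112 were 50.7%, near the 48.3% of the annotated genes at the limit and the 46.9% of all genes tested. Both steps, 13 to 19 and 19 to 25 DPA, were called as rises for 15 genes (6.79%), compared with 149 annotated genes at the limit (1.79%) and 287 of all genes tested (1.22%). Both steps were called as falls for 4 genes (1.81%), for 180 of the annotated genes (2.16%) and for 417 of all genes tested (1.77%). The first step alone of the 2 was called as a rise for 18 genes and as a fall for 2 genes. The second step alone was called as a rise for 26 genes and as a fall for 26 genes. These single steps were not counted among annotated or all genes, so nothing is read from the numbers. By edgeR, 0 new genes rose at the first step and fell at the second, and 0 did the opposite, while 2 and 3 did so at an unadjusted p under 0.05 and 1 and 1 by DESeq2. The 15 genes with 2 rises became 4 or 8 when 13 DPA replicate 1 or 3 was left out, 7, 5 or 8 when 19 DPA replicate 1, 2 or 3 was, 8 when 25 DPA replicate 1 was, and 31 when 13 DPA replicate 2 was. The 4 genes with 2 falls became 2 in the fits without 13 DPA replicate 1 or 3, any 1 of the 19 DPA libraries, or 25 DPA replicate 1 or 2.

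Novel01480, 694 bases long, was the most abundant of the new genes. It had 656 ± 646, 2467 ± 159 and 5037 ± 98.5 FPKM at 13, 19 and 25 DPA (SD, n = 3), ranked 35 among all genes by its highest stage mean and stood 3.89-fold above the next new gene. It alone held 0.0455 ± 0.0448%, 0.171 ± 0.0110% and 0.350 ± 0.00684% of the counts. In TMM-scaled CPM, replicates 1, 2 and 3 had 176, 736 and 65.9 at 13 DPA, 1666, 2500.2 and 1738 at 19 DPA, then 4631, 4456 and 5452 at 25 DPA. The stages did not overlap, and within 13 DPA the second replicate lay far above the others. The rise at 25 DPA over 13 DPA was called (log2 fold change 3.90 ± 0.83 SE, edgeR FDR 0.00364). The 2 single steps, at 2.59 ± 0.78 (FDR 0.0676) for 19 vs 13 DPA and 1.30 ± 0.75 (FDR 0.194) for 25 vs 19 DPA, were not called.

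Novel00719, with 2041 bases, followed a similar course at 175 ± 79.2, 513 ± 105 and 900 ± 422 FPKM (SD, n = 3). Its TMM-scaled CPM were 206, 404 and 116 at 13 DPA, 1232, 1560.1 and 826 at 19 DPA, then 3743, 2133 and 1630.4 at 25 DPA. No library of a stage reached into the next. The log2 fold change of 25 vs 13 DPA was 3.37 ± 0.59 (edgeR FDR 0.0013). That of 19 vs 13 DPA was 2.32 ± 0.56 and was called at an FDR of 0.0343. This first step was lost without 13 DPA replicate 1 (FDR 0.141) or 3 (0.0823), 19 DPA replicate 1 (0.0746), 2 (0.102) or 3 (0.0515), or 25 DPA replicate 2 (0.0511).

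Novel02023 (1070 bases) and Novel00583 (2323 bases) rose with wide spread at 13 DPA. Novel02023 had TMM-scaled CPM of 39.3, 181 and 15.1 at 13 DPA, 353, 748 and 237 at 19 DPA, then 1262, 838 and 1692 at 25 DPA. Novel00583 had 23.7, 101 and 7.03 at 13 DPA, 236, 496 and 183 at 19 DPA, then 1343, 803 and 1407 at 25 DPA. In both genes the stages did not overlap, and replicate 2 was the highest and replicate 3 the lowest library at 13 and at 19 DPA. Their log2 fold changes of 25 vs 13 DPA were 4.01 ± 0.92 (edgeR FDR 0.00538) for Novel02023 and 4.75 ± 0.95 (FDR 0.00276) for Novel00583, and neither gene was called at a single step.

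Novel01614 (1267 bases) and Novel01061 (1055 bases) were the most abundant of the 15 genes that rose at both steps. Novel01614 had 73.5 ± 37.5, 211 ± 46.8 and 495 ± 166 FPKM at 13, 19 and 25 DPA, and Novel01061 had 42.9 ± 21.2, 139 ± 29.3 and 333 ± 34.2 FPKM (SD, n = 3). For Novel01061 the TMM-scaled CPM were 24.2, 53.5 and 14.8 at 13 DPA, 145, 246 and 124 at 19 DPA, then 478, 399 and 592 at 25 DPA, with no overlap between stages. Its log2 fold changes were 2.48 ± 0.49 for 19 vs 13 DPA (edgeR FDR 0.019), 1.51 ± 0.47 for 25 vs 19 DPA (FDR 0.0315) and 3.99 ± 0.52 for 25 vs 13 DPA (FDR 0.000343). The first step was lost without 13 DPA replicate 1 (FDR 0.0882) or 19 DPA replicate 2 (0.0591). The second was lost without 19 DPA replicate 1 (0.103) or 3 (0.11), or 25 DPA replicate 1 (0.069) or 3 (0.0895). For Novel01614 the log2 fold change of 25 vs 13 DPA was 3.76 ± 0.57 (edgeR FDR 0.00063). Its 2 steps were close to the limit, at 2.29 ± 0.53 (FDR 0.0298) and 1.47 ± 0.52 (FDR 0.0472). The first was lost in 4 of the fits without 1 library (without 13 DPA replicate 1 or 3, or 19 DPA replicate 1 or 2, FDR 0.0639 to 0.124). The second was lost in 6 of them (without 13 DPA replicate 1, 19 DPA replicate 1 or 3, or any 25 DPA library, FDR 0.0682 to 0.153).

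Not all abundant new genes changed in 1 direction. Novel00527, only 421 bases long and the second in level, had its highest mean at 19 DPA, with 1089 ± 381, 1294 ± 506 and 420.2 ± 223 FPKM at 13, 19 and 25 DPA (SD, n = 3). Its TMM-scaled CPM were 301, 219 and 334 at 13 DPA, 784, 735 and 345 at 19 DPA, then 149.9, 172 and 436 at 25 DPA, and the third library of 25 DPA lay above the third of 19 DPA. No comparison was called, the nearest being 25 vs 19 DPA at −1.30 ± 0.48 (edgeR FDR 0.0584). Novel01187 also had its highest mean at 19 DPA, with TMM-scaled CPM of 858, 1065 and 791 at 13 DPA, 1559, 3204 and 1594 at 19 DPA, then 1819, 659 and 3173 at 25 DPA. The 25 DPA libraries of this gene ranged widely and overlapped with those of both other stages, and no comparison was called. Novel00020 (484 bases) had 372 ± 26.2, 191 ± 24.9 and 290 ± 62.8 FPKM. In TMM-scaled CPM it had 115, 145 and 91.6 at 13 DPA and 103, 135 and 80.8 at 19 DPA. At 25 DPA it had 164, 158 and 269. The log2 fold change of 19 vs 13 DPA was −0.14 ± 0.30 (edgeR FDR 0.809), with overlapping libraries. That of 25 vs 19 DPA, 0.89 ± 0.30 (edgeR FDR 0.0429), stayed under the fold limit.

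**Figure D4:**
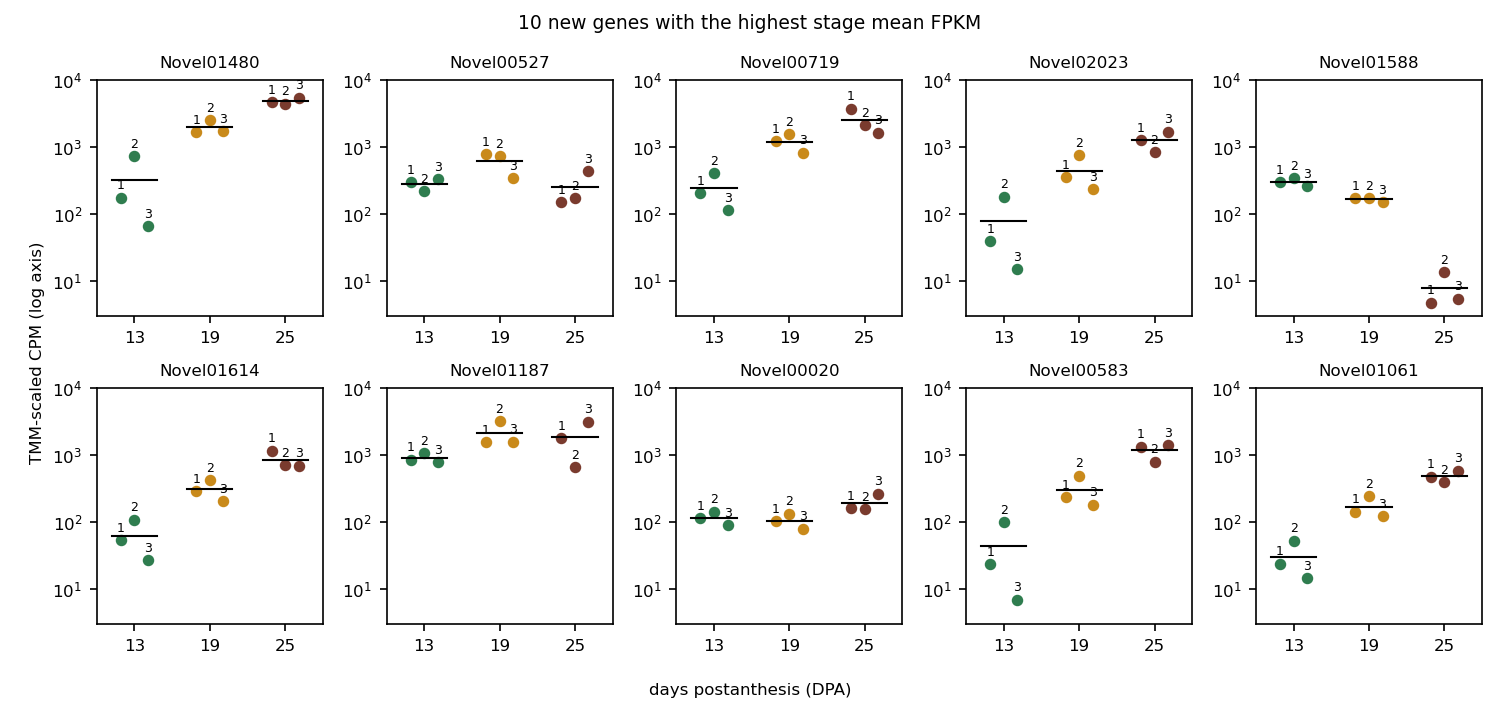
TMM-scaled CPM (log axis) of the 10 new genes with the highest stage mean FPKM, by stage. Points are libraries with their replicate number, and lines are stage means. Novel01480, Novel00719, Novel02023, Novel01614, Novel00583 and Novel01061 were higher in every library of 25 DPA than in any of 13 DPA, and Novel01588 was lower.

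Among called genes without overlap, the steepest rises of 25 over 13 DPA were those of Novel01657, Novel02068 and Novel00210. Their means at 13 DPA were low, at 0.382, 3.26 and 7.44 FPKM. Novel01657, 1602 bases long, had 5, 42 and 0 counts in replicates 1, 2 and 3 at 13 DPA, 46, 79 and 82 at 19 DPA, then 1040, 883 and 657 at 25 DPA. In FPKM this was 0.382 ± 0.553, 1.90 ± 0.555 and 23.2 ± 5.85 (SD, n = 3). The log2 fold change of 25 vs 13 DPA was 6.84 ± 1.01 (edgeR FDR 0.000636), the largest rise among the new genes whose libraries did not overlap, and that of 25 vs 19 DPA was 3.86 ± 0.86 (FDR 0.00823). Novel02068 (1925 bases) had TMM-scaled CPM of 2.71, 8.66 and 1.73 at 13 DPA, 8.69, 33.5 and 6.23 at 19 DPA, then 224, 202 and 539.9 at 25 DPA. Most of its rise lay in the second step (4.32 ± 0.87, edgeR FDR 0.00531), and 25 DPA replicate 3 alone held 52.6% of its scaled counts. Novel00210 (1391 bases) had 4.85, 17.2 and 0.402 at 13 DPA, 42.2, 70.8 and 36.7 at 19 DPA, then 494, 401 and 549 at 25 DPA. Its log2 fold change was 6.01 ± 1.10 for 25 vs 13 DPA (edgeR FDR 0.0018) and 3.27 ± 0.97 for 25 vs 19 DPA (FDR 0.0258). The second step was lost without 19 DPA replicate 1 (FDR 0.0864) or 3 (0.0837), or 25 DPA replicate 1 (0.0565) or 3 (0.0594).

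The 3 largest rises of 19 DPA over 13 DPA were those of Novel01279, Novel01239 and Novel01018. Novel01018 (1972 bases) had TMM-scaled CPM of 1.24, 5.06 and 1.86 at 13 DPA, 27.4, 13.6 and 40.3 at 19 DPA, then 127, 86.2 and 135 at 25 DPA. It was called at both steps, with 3.32 ± 0.57 for 19 vs 13 DPA (edgeR FDR 0.0137) and 2.10 ± 0.54 for 25 vs 19 DPA (FDR 0.0144). In this gene 19 DPA replicate 2 was the lowest library of its stage, unlike in most of the rising genes. The first step was lost without 13 DPA replicate 1 (FDR 0.0509) and the second without 19 DPA replicate 1 (0.05005). Novel01279 (848 bases) had 54, 38 and 5 counts at 13 DPA, 305, 196 and 126 at 19 DPA, then 728, 529 and 409 at 25 DPA. Its rise at 19 DPA was 3.56 ± 0.67 (edgeR FDR 0.0166) and was lost without 13 DPA replicate 1 (FDR 0.0504). Novel01239 (1657 bases) had TMM-scaled CPM of 6.65, 15.5 and 0.829 at 13 DPA, 76.6, 123 and 52.1 at 19 DPA, then 306, 223 and 197 at 25 DPA. It rose at 19 DPA over 13 DPA (3.45 ± 0.83, edgeR FDR 0.035), and this call was lost without 13 DPA replicate 1 (FDR 0.136) or any 1 of the 19 DPA or 25 DPA libraries (0.0509 to 0.0962). The rises of Novel01279 and Novel01239 at 25 DPA over 13 DPA, 5.23 ± 0.71 (edgeR FDR 0.000422) and 4.98 ± 0.90 (FDR 0.00163), were called in every fit without 1 library.

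Novel01256 took another course. This gene of 1094 bases had TMM-scaled CPM of 19.2, 22.4 and 12.6 at 13 DPA, 0.634, 9.56 and 4.57 at 19 DPA, then 120.1, 91.0 and 96.8 at 25 DPA. The 19 DPA libraries were the lowest and the 25 DPA libraries the highest, with no overlap. The difference of 19 vs 13 DPA, −1.89 ± 0.68, was not called (edgeR FDR 0.112), while the rise of 25 over 19 DPA, 4.40 ± 0.74 (FDR 0.00259), was the largest of that step.

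Among the 15 genes called as rises at both steps, the others were Novel00094, Novel00236, Novel00415, Novel00542, Novel00596, Novel00643, Novel01087, Novel01090, Novel01270, Novel01682, Novel01824 and Novel01939, named here after their values were seen. Their lengths ran between 537 bases (Novel00596) and 3067 bases (Novel01090). Novel00596 had the lowest FDR of them for 25 vs 19 and 25 vs 13 DPA, at log2 fold changes of 1.39 ± 0.21 for 19 vs 13 DPA (edgeR FDR 0.0102), 1.70 ± 0.21 for 25 vs 19 DPA (FDR 0.000944) and 3.09 ± 0.23 for 25 vs 13 DPA (FDR 7.55e-05). Its stage means were 16.9, 24.9 and 65.6 FPKM. Novel00643 had the steepest course of these, with 1.45, 7.42 and 26.9 FPKM and a log2 fold change of 5.22 ± 0.59 for 25 vs 13 DPA (edgeR FDR 0.000213).

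The 66 new genes upregulated at 25 DPA compared with 13 DPA had a median log2 fold change of 3.07 (1.05 to 6.84) and a median length of 1402 bases, and 36 of them changed by at least 3 on the log2 scale. The 39 downregulated ones had a median of −2.38 (−8.42 to −1.05) and a median length of 1076 bases, and 15 changed by at least 3. The 116 genes not called had a median length of 1339.5 bases. For 65 of the 66 and 38 of the 39 the libraries of the stages did not overlap, as the test itself makes likely.

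Novel01280 showed the largest fall of all the new genes. This gene of 910 bases had 3172, 3574 and 4964 counts in replicates 1, 2 and 3 at 13 DPA, 192, 23 and 58 at 19 DPA, then 7, 2 and 6 at 25 DPA. It stood at 182 ± 57.6, 4.41 ± 4.30 and 0.238 ± 0.130 FPKM (SD, n = 3), with no overlap at either step. The log2 fold changes were −4.60 ± 0.63 for 19 vs 13 DPA (edgeR FDR 0.00846), −3.81 ± 0.76 for 25 vs 19 DPA (FDR 0.00518) and −8.42 ± 0.81 for 25 vs 13 DPA (FDR 0.000123), and all 3 calls held in every fit without 1 library. Novel01478 (726 bases) followed the same course at a lower level, with 671, 449 and 415 counts at 13 DPA, 26, 12 and 23 at 19 DPA, then 0, 5 and 1 at 25 DPA. A count of 0 allows up to 3 counts, so the size of its second fall, −3.03 ± 0.66 (edgeR FDR 0.00727), rests on few reads, and it was −4.78 without 25 DPA replicate 2. The other 2 genes that fell at both steps were Novel01367 and Novel01889, named after their values were seen, with 35.2, 5.53 and 1.66 FPKM and 73.6, 16.5 and 5.92 FPKM as stage means.

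Novel01152 fell early and then stayed low. This gene of 2043 bases had TMM-scaled CPM of 98.2, 31.9 and 78.6 at 13 DPA, 4.71, 3.95 and 5.90 at 19 DPA, then 7.38, 8.16 and 3.75 at 25 DPA. The log2 fold change was −3.84 ± 0.46 for 19 vs 13 DPA (edgeR FDR 0.00554) and 0.41 ± 0.43 for 25 vs 19 DPA (FDR 0.476). The libraries of 25 and 19 DPA overlapped, those of 13 DPA stood apart from both.

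In 4 other genes the fall was called at the second step and not at the first. Novel01588 (629 bases) had 745 ± 19.98, 234 ± 34.0 and 9.51 ± 6.68 FPKM at 13, 19 and 25 DPA (SD, n = 3). Its TMM-scaled CPM were 296, 347 and 263 at 13 DPA, 175, 173 and 149.6 at 19 DPA, then 4.78, 13.8 and 5.50 at 25 DPA. The first step was not called (−0.87 ± 0.37, edgeR FDR 0.177), and the second was −4.37 ± 0.43 (FDR 0.000499). Novel00846 (605 bases) had 752, 713 and 1471 counts at 13 DPA, 197, 264 and 248 at 19 DPA, then 0, 3 and 6 at 25 DPA, with a first step of −1.11 ± 0.44 that was not called (edgeR FDR 0.141) although the libraries did not overlap. Its second step of −6.02 ± 0.63 (edgeR FDR 0.000618) was the largest fall of that step without overlap. Novel00438 (847 bases) had TMM-scaled CPM of 263, 164 and 46.9 at 13 DPA, 439, 249 and 132 at 19 DPA, then 4.78, 14.2 and 4.40 at 25 DPA, so that its levels at 13 and 19 DPA varied widely between replicates while all 25 DPA libraries lay below them (−5.13 ± 0.82 for 25 vs 19 DPA, edgeR FDR 0.0021). Novel00225 (539 bases) behaved alike, with TMM-scaled CPM of 102, 62.1 and 29.5 at 13 DPA, 93.7, 16.4 and 22.4 at 19 DPA, then 0.786, 2.26 and 1.75 at 25 DPA (−4.78 ± 0.83 for 25 vs 19 DPA, edgeR FDR 0.00279).

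Some of the genes had a very low level in another stage, described here in FPKM and without a comparison of stages. At 25 DPA 6 of the 221 new genes (2.71%) were under 1 FPKM, namely Novel01280, Novel00081, Novel00846, Novel00579, Novel01478 and Novel00810, against 391 of the annotated genes at the limit (4.69%). At 13 DPA 2 were, Novel00544 and Novel01657, against 7 annotated genes (0.0840%). Novel00810 and Novel00544 were named after their values were seen.

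In 2 genes with a called fall the replicates were uneven. Novel00579 (1037 bases) had 374, 86 and 2769 counts at 13 DPA, 41, 1 and 550 at 19 DPA, then 4, 9 and 10 at 25 DPA, and 13 DPA replicate 3 alone held 63.0% of its TMM-scaled counts. Its log2 fold change of 25 vs 13 DPA was −5.89 ± 1.89 (edgeR FDR 0.0256) and became −3.73 without that library (FDR 0.0911). The call was also lost without each 25 DPA library in turn (FDR 0.0709 to 0.0845). Novel00081 (467 bases) had 623, 85 and 2119 counts at 13 DPA, 105, 0 and 719 at 19 DPA, then 0, 0 and 4 at 25 DPA. In both genes replicate 3 was the highest and replicate 2 the lowest library at 13 and at 19 DPA. Novel00081 was called for 25 vs 13 DPA (−8.14 ± 2.29, edgeR FDR 0.0145), with FDR 0.0546 without 25 DPA replicate 1 and a fold change of −12.28 at FDR 0.0533 without 25 DPA replicate 3. In the fits without any 1 of the 13 DPA libraries, Novel00081 kept this call. It was also called for 25 vs 19 DPA (−7.22 ± 2.28, FDR 0.0332), although the libraries overlapped, and lost without 19 DPA replicate 3 (−4.89, FDR 0.115) or 25 DPA replicate 1 (−6.67, FDR 0.103), 2 (−6.60, FDR 0.093) or 3 (−11.37, FDR 0.0938).

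**Figure D5:**
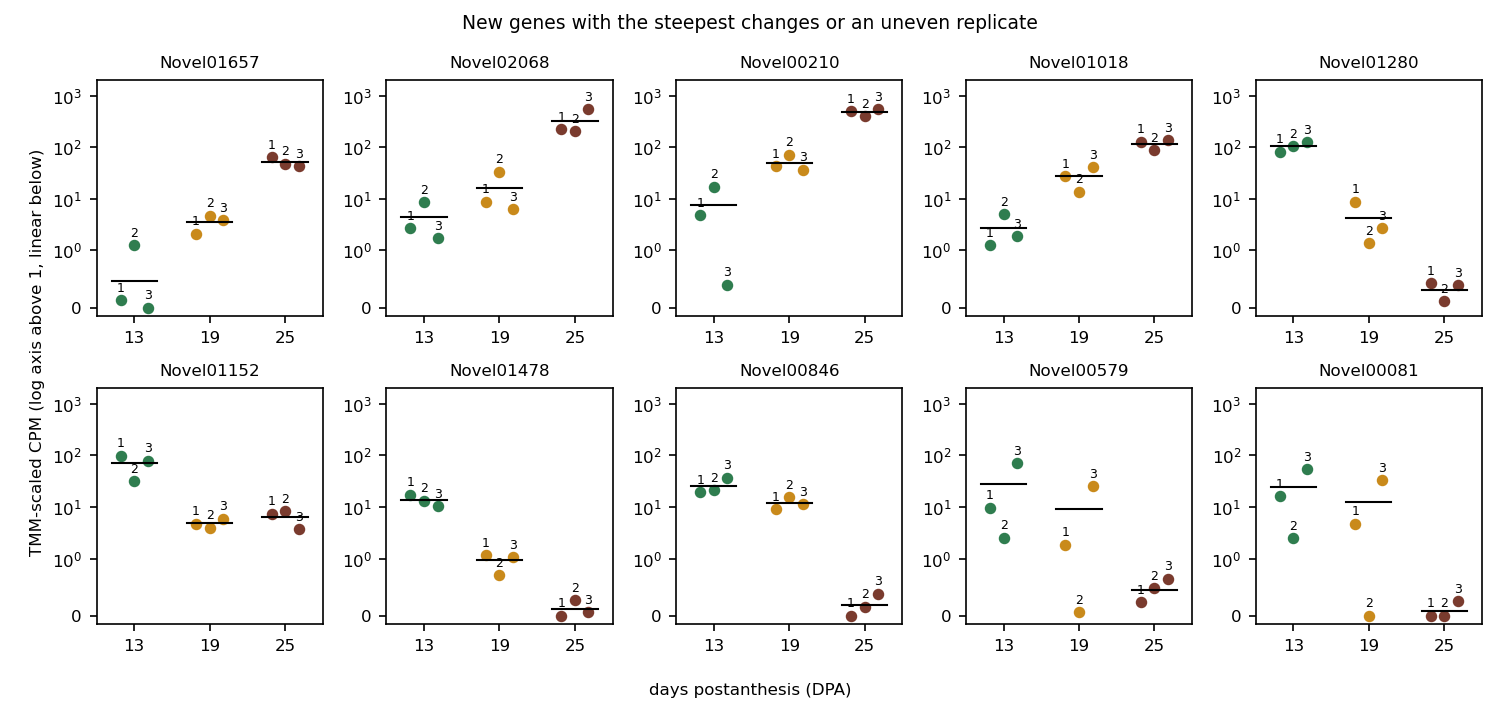
TMM-scaled CPM of 10 new genes, by stage, on an axis that is logarithmic above 1 and linear below. Points are libraries with their replicate number, and lines are stage means. Novel01657, Novel02068, Novel00210 and Novel01018 were highest at 25 DPA. Novel01280, Novel01152, Novel01478 and Novel00846 were highest at 13 DPA, and Novel00579 and Novel00081 had 1 replicate, number 3, far above the others at 13 and 19 DPA.

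Other genes changed little or not at all by the call limits. Novel00553 (1832 bases) had its highest TMM-scaled level at 13 DPA and 318 ± 13.7, 167 ± 40.0 and 78.6 ± 20.4 FPKM at 13, 19 and 25 DPA. Its log2 fold changes of −0.79 ± 0.26 for 25 vs 19 DPA (edgeR FDR 0.0392) and −0.93 ± 0.26 for 25 vs 13 DPA (FDR 0.0141) stayed under the fold limit. Of the 109 genes called in no comparison, 50 had stage means of log2 CPM within 0.5 of each other. Novel00608 varied least, with TMM-scaled CPM of 31.5, 36.2 and 26.6 at 13 DPA, 29.7, 31.6 and 30.5 at 19 DPA, then 42.6, 26.9 and 24.0 at 25 DPA. Its log2 fold changes were −0.04 ± 0.23, 0.03 ± 0.23 and −0.01 ± 0.23 for 19 vs 13, 25 vs 19 and 25 vs 13 DPA. Novel01320 had 18.4, 18.8 and 16.7 at 13 DPA, 17.9, 22.1 and 16.1 at 19 DPA, then 17.2, 17.6 and 21.9 at 25 DPA, and Novel01406 had stage differences of −0.10 to 0.07 on the log2 scale with an SE of 0.24. These 3 genes were chosen for their small range, which is therefore a description and not a test of constancy.

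The spread between replicates was compared with that of the annotated genes at the limit as a description, without a test. The median coefficient of variation of TMM-scaled CPM was 24.2, 23.1 and 27.6% at 13, 19 and 25 DPA for the new genes and 21.1, 19.0 and 18.9% for the annotated genes. It was above 100% for 13 new genes (5.88%) and 2.52% of the annotated genes at 13 DPA, for 3 (1.36%) and 1.70% at 19 DPA, then for 4 (1.81%) and 2.51% at 25 DPA. Thus the new genes had the higher medians, but the higher share of very uneven genes at 13 DPA only. Of the new genes, 175 had at least 100 counts in every library, and 4 had a count of 0 in some library.

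Within 13 DPA, most of the upregulated new genes shared an order of the libraries, which was less common among the other new genes. Of the 66 upregulated new genes, 55 had their highest 13 DPA value in replicate 2 and 49 their lowest in replicate 3, and at 19 DPA 54 had their highest value in replicate 2 and 50 their lowest in replicate 3. Of the 39 downregulated new genes, 10 had their highest 13 DPA value in replicate 2 and 21 their lowest in replicate 3. Of the 116 not called between 25 and 13 DPA, these numbers were 53 and 66. For 113 of the 221 genes (51.1%) 13 DPA replicate 2 was the library nearest to the 19 DPA mean, as for 50.9% of the annotated genes. The same replicate number gave the highest library at 19 and 13 DPA for 144 new genes (65.2%), at 25 and 19 DPA for 75 (33.9%) and at 25 and 13 DPA for 66 (29.9%). For the annotated genes at the limit these shares were 61.6, 33.0 and 34.2%. Across the 221 genes, Pearson's r of log2 CPM between libraries was 0.750 to 0.910 within 13 DPA, 0.839 to 0.926 within 19 DPA and 0.940 to 0.953 within 25 DPA. Between stages it was 0.338 to 0.828 for 19 with 13 DPA, 0.621 to 0.814 for 25 with 19 DPA and 0.0377 to 0.482 for 25 with 13 DPA. Across the annotated genes at the limit, r between these stages was 0.467 to 0.865, 0.618 to 0.853 and 0.260 to 0.604. These are descriptions across genes that share libraries. The part of the order of the 13 and 19 DPA replicates in the calls was not tested beyond the fits without single libraries and with a replicate block.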

How the data were processed

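RNA of seeds was sequenced as paired-end reads in 9 libraries, 3 each at 13, 19 and 25 DPA. As the methods and labels state, the authors trimmed reads, aligned them to the Pinku1 genome with TopHat2 2.0.12 and Bowtie2 2.0.6, and added new genes from an annotation-guided Cufflinks assembly. The deposited counts are whole, unscaled counts per gene. The authors computed the deposited FPKM out of these counts, the gene length and the library total. No genome or sequence was used here. Lengths were recovered for 30221 genes as the ratio of count to FPKM and library total.

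Counts were fitted in R 4.3.3 with edgeR 4.0.16 (TMM, filterByExpr, robust quasi-likelihood test, all 9 libraries, no block). Of the genes, 10331 were left out by the filter. The common biological coefficient of variation was 0.362. SE is the log2 fold change divided by the root of F. The methods give the fold limit in an unfinished sentence, and 1 on the log2 scale was taken. Alternatives were DESeq2 1.42.0, RLE, upper-quartile and no factors, TMM without the 50 most abundant genes, no filter, 6 libraries only, a replicate block, limma 3.58.1 on log2(FPKM + 1) or log2(FPKM + 0.1), other limits for a call or a member, and each library left out. Tables and plots used Python 3.11.15, pandas 2.3.3 and matplotlib 3.10.9. The tools were tested on simulated data.

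Named genes were the 10 with the highest stage mean FPKM, the 3 largest called rises and falls per comparison without overlap, the 2 most abundant of those highest in each stage, the 3 steadiest, those next to the limit, the shortest and longest, and the 3 with the largest share of scaled counts in 1 library. The members and lists were chosen with earlier results of these data known. For 19 vs 13 DPA, same-numbered libraries deviated together from their stage means. Across genes, r was 0.353, 0.494 and 0.590 (other numbers −0.478 to −0.111). What the same-numbered libraries shared was not tested, and the main fits used no replicate block. For 25 vs 19 DPA r was 0.0258, 0.0329 and 0.197, and for 25 vs 13 DPA −0.0279, 0.00758 and 0.133.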

Additional observations from a re-analysis of the deposited data

How the results depend on the processing

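Between 19 and 13 DPA, the 39 new genes called became 76 with total counts, 80 with limma on log2(FPKM + 1), 77 with limma without a filter and 87 with a pseudocount of 0.1, of which 26, 31, 31 and 32 were higher. They became 22 at a log2 limit of 2 and 24 with a limit of 50 FPKM, and 7 to 58 without single libraries. Between 25 and 19 DPA, the 71 became 31 at a log2 limit of 2, 29 from 50 FPKM and 40 with new genes chosen by the mean over 9 libraries, and 48 to 78 without single libraries. Between 25 and 13 DPA, the 105 became 51 from 50 FPKM and 65 by the mean over 9 libraries, and 96 to 111 without single libraries. DESeq2 called 56, 79 and 104. New genes with rises at both steps, 15 as reported, numbered 25 with DESeq2, 10 with total counts and 9 with 6 libraries only. Those with falls at both, 4 as reported, numbered 7, 19 and 2 in these fits, and 16, 19 and 13 with limma at a pseudocount of 1, at 0.1 and without a filter. The FPKM limit of 50 and the choice by the mean over 9 libraries follow fewer genes and the log2 limit of 2 is stricter by construction. For the others the cause was not tested.

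With a replicate block, 50 new genes were called between 19 and 13 DPA (42 higher, 38 of the 39 shared), 74 between 25 and 19 DPA and 108 between 25 and 13 DPA. Of 45 called log2 fold changes of named genes, 30 were called under every alternative. Of 897 values, 837 kept direction and call, 60 kept the direction only and 0 turned. The fold changes followed were called ones, many of genes named for large changes, so the choice itself makes a turn unlikely. DESeq2 gave no adjusted p for 2 further values. With 3 replicates, fold changes of genes with few counts in a stage are uncertain.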
